A study of Mus musculus with 12 samples.

Results

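Here 200 genes are described whose RNA level was higher after doxorubicin than after vehicle in wild-type, p53-knockout and Dux-knockout mouse embryonic stem cells alike. They were chosen by measured values. Counts were scaled to the library's column total (CPM), and a gene was kept when its drug mean was at least 3 CPM and its fold, (drug + 0.5)/(vehicle + 0.5) on group means, was at least 2 in each of the 3 genotypes. Of 54532 genes in the count table, 617 passed after predicted genes named Gm plus a number were set aside (670 with them), and the 200 with the highest smallest fold are the members. All 200 were among the 28643 genes tested. The last ranks inside were held by Tcn2 (smallest fold 2.972), Sptb (2.97) and Cfap300 (2.96), and the first ranks outside by Cd109 (2.952), Ap1m2 (2.944) and Timp3 (2.938), so the edge of the set separates nothing.

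The cells were E14 mouse embryonic stem cells, an established line, grown without feeders on gelatin with leukemia inhibitory factor and the inhibitors PD0325901 and CHIR99021. The drug groups received 1 uM doxorubicin for 6 h and then medium without drug, and the vehicle groups received DMSO for the same time (the labels do not say how long the cells were kept after the change of medium). Poly(A) RNA was sequenced from WT, p53 KO and Dux KO cells with 2 libraries per group, which the series calls biological duplicates. WT libraries carry no number and are called a and b; knockout libraries 1 and 2 come from knockout lines 1 and 2, so the spread within a knockout group also holds the difference between lines. The count column of Dux KO vehicle library 2 holds the values of Dux KO drug library 1 for each of the 54532 genes and was left out. Thus 11 libraries were used, and the fit gave the single Dux KO vehicle library the spread of the rest.

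Doxorubicin traps topoisomerase II on DNA and causes double-strand breaks. The breaks activate p53, a transcription factor that raises genes of growth arrest and cell death, and in embryonic stem cells p53 can also raise Dux, a transcription factor that turns on genes of the early cleavage-stage embryo. DNA damage further activates signalling that does not need p53, among it NF-kB, stress kinases that act through AP-1 (dimers of Jun and Fos proteins), and sensors of nucleic acid that raise interferon-type genes.

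Totals ran from 23270358 to 56795858 counts per library. As a check of the labels, Trp53, the p53 gene, stood at 184 and 148 CPM in WT vehicle, 64.4 and 36.5 in p53 KO vehicle and 103 and 51.3 in p53 KO drug (lines 1 and 2). RNA from the gene was therefore lower but present in p53 KO, and counts over the gene do not show whether protein was made. Duxf3, the Dux gene, had 23.1 and 22.5 CPM in WT drug, 4.25 and 0.859 CPM in p53 KO drug lines 1 and 2, and 0 counts in the 3 Dux KO libraries; it is a repeated gene whose reads may be shared between copies. The summed level of 10 stem cell markers was 5153 to 5234 CPM in WT vehicle and 912 to 1129 CPM in WT drug, 4630 to 4632 and 3165 to 3487 CPM in p53 KO, and 4843 and 2209 to 2438 CPM in Dux KO. Summed markers of other types also differed: 10 fibroblast markers went from 14.8 to 15.2 CPM in WT vehicle to 93.8 to 95.8 CPM in WT drug, and 10 blood cell markers from 17 to 17.8 CPM to 62.9 to 72.9 CPM. In p53 KO the fibroblast sum went from 15.9 to 27.6 CPM with vehicle to 41 to 56.8 CPM with drug and the blood sum from 17.6 to 17.7 CPM to 31.5 to 33.5 CPM, and in Dux KO from 15.5 CPM to 44.4 to 51.7 CPM and from 14.7 CPM to 80.8 to 81 CPM. The sum of 10 trophectoderm markers went from 40.9 to 44.4 CPM to 218 to 228 CPM in WT, from 22.6 to 93.6 CPM to 63 to 89.7 CPM in p53 KO, and from 31 CPM to 114 to 175 CPM in Dux KO. The sum of 10 primitive endoderm markers went from 112 to 114 CPM to 69.2 to 73.4 CPM in WT, from 57.1 to 72.7 CPM to 71.4 to 82.1 CPM in p53 KO, and from 124 CPM to 84 to 84.4 CPM in Dux KO. The sum of 10 neuroectoderm markers went from 63.4 to 78.5 CPM to 93.3 to 96.3 CPM in WT. That sum went from 67.9 to 108 CPM to 125 to 162 CPM in p53 KO, and from 80.7 CPM to 40.5 to 43.7 CPM in Dux KO. In WT vehicle the fibroblast markers Dcn and Lum and the blood markers Ptprc, Tyrobp and Hba-a1 were at 0. Of the 10 markers of each of these types, 4 were under 0.1 CPM in WT vehicle. In WT drug 2 fibroblast markers and 1 blood marker were under 0.1 CPM, and only Tyrobp was at 0. The part of these shifts in the results below was not tested, and a change in the share of cells of a kind cannot be told apart from a change of RNA per cell.

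Promoter sequence is shown for AP-1 matches in the 10 members ranked first and for a pair of neighbouring GTPase genes with the same interferon motif. These were picked after the matches were seen, and other leading members with a match of another motif (Stra6, NF-kB; Plk2, the interferon core and the cAMP response element) are not printed. RefSeq promoter windows of GRCm38.p6, reaching from 250 bases before to 50 bases after a gene's start, were found for 154 of the 200 members (200 windows, since some genes have several starts) and gave 20199 windows over all genes tested. The AP-1 motif TGANTCA, read on both strands, was in 27 of the 200 member windows, 13.5%, and in 6.28% of all windows. Of the first 10 members by rank, Chit1, Efemp1, Nfam1 and A730082K24Rik each hold 1 match. Below, each is written 5′ to 3′ on the gene's strand with the motif in capitals and 20 bases on each side. They lie upstream of a RefSeq start at chr1:134111170-134111216 (Chit1, plus strand), chr11:28853031-28853077 (Efemp1, plus), chr15:83023161-83023207 (Nfam1, minus) and chr7:114948473-114948519 (A730082K24Rik, plus). The Nfam1 stretch lies inside that gene's GENCODE span, 82992973 to 83033306.
Chit1: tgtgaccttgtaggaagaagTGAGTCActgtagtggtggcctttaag
Efemp1: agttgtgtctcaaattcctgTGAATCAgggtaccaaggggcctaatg
Nfam1: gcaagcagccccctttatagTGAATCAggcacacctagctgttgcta
A730082K24Rik: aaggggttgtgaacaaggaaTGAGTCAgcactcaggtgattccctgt
A match of this kind is a description of the letters, not a measured binding site.

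The core letters of the interferon-stimulated response element, GAAANNGAA on either strand, were in 8% of member windows and 7.64% of all windows. They occur upstream of a RefSeq start of the neighbouring immunity-related GTPase genes Igtp (chr11:58199502-58199550, plus strand) and Irgm2 (chr11:58214893-58214941, plus), shown because both genes are members. The Irgm2 stretch lies inside that gene's GENCODE span, 58199618 to 58222782.
Igtp: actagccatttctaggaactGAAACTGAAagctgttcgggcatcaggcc
Irgm2: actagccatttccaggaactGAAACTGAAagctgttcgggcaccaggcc
For the other motifs searched the shares were as follows: the STAT motif TTCNNNGAA in 7.5% of member windows against 7.37% of all windows, the cAMP response element TGACGTCA in 2% against 2.49%, the TEAD motif ACATTCC in 4% against 3.29%, the p53 half-site in 9% against 7.57%, and the NF-kB motif in 8.5% against 10%. No test was made of these shares.

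The responses that chose the members differed in size between genotypes. The median fold was 9.49 in WT (3.04 to 499), 3.93 in p53 KO (2.96 to 17.3) and 10.1 in Dux KO (3 to 346). The smallest of the 3 folds was that of p53 KO in 170 members, of Dux KO in 17 and of WT in 13; the largest was that of Dux KO in 105, of WT in 83 and of p53 KO in 12. Both drug libraries lay above both vehicle libraries in 200 members in WT and in 190 in p53 KO, and both Dux KO drug libraries lay above its vehicle library in 200; over all genes tested these shares were 47.7%, 46.8% and 50.6%. By edgeR at an adjusted p under 0.05, 99% of the members were called higher with drug in WT (29% of all genes tested were called higher), 167 members in p53 KO (9.31%) and 189 in Dux KO (14.5%). Since these contrasts chose the members, nothing is read from those counts. In a library that the choice did not use, Dux KO vehicle library 2 with counts recovered from its FPKM values, 199 of the 200 members were at least 2-fold lower than in the drug library of the same line, as were 19.1% of all genes tested. That drug library was among those that chose the members, so the count is a description and no independent check. CPM by column total also gives larger folds than the TMM scaling used in the tests: TMM moves all log2 folds by -0.13 in WT, -0.34 in p53 KO and -0.22 in Dux KO, and 193 of the 200 members still passed both thresholds on that scale.

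**Figure D1:**
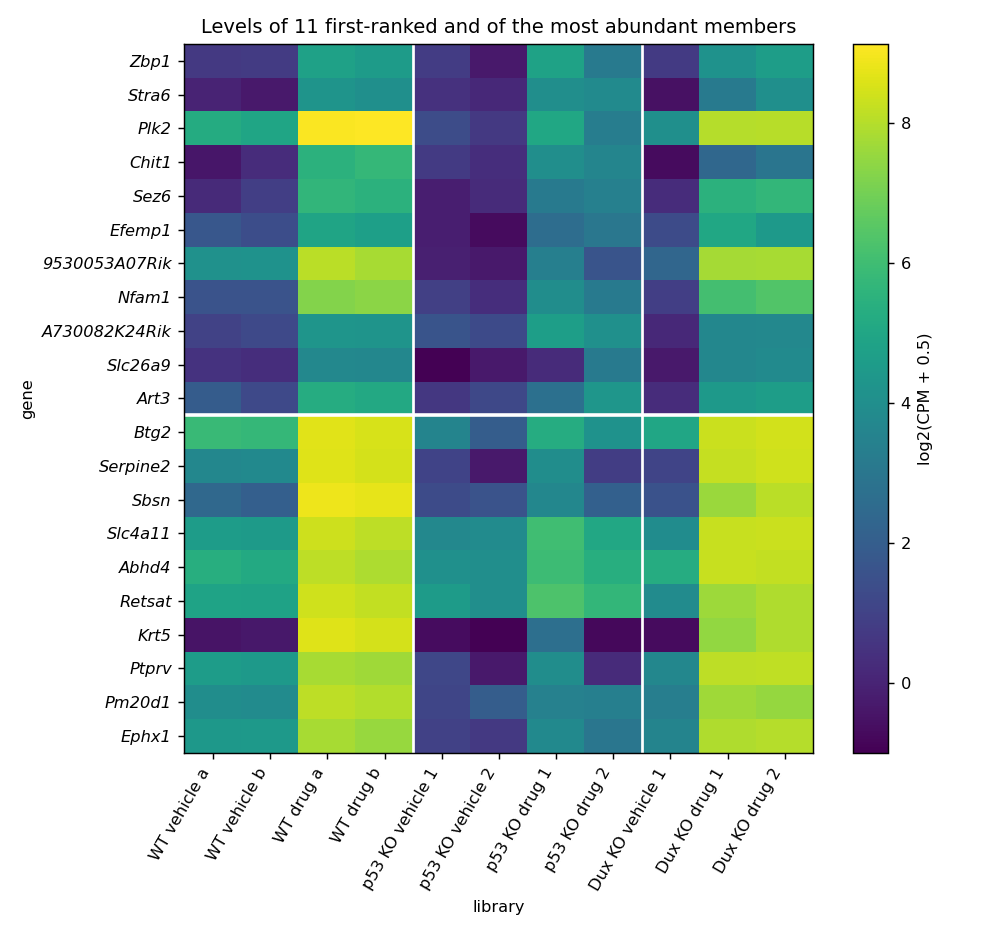
Level of 21 members in 11 libraries, as log2(CPM + 0.5) by colour; rows above the white line are the 11 members ranked first, rows below it are the other members among the 12 of highest drug level. The p53 KO drug columns are darker than the WT and Dux KO drug columns in most of the lower rows, with Krt5 and Ptprv dark in p53 KO drug library 2.

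Zbp1, a sensor of Z-form nucleic acid that can start necroptosis, ranked first. It is ENSMUSG00000027514 on the minus strand of chromosome 2, 173206612 to 173218923 in GRCm38. Its level was 1.11 and 1.19 CPM in WT vehicle and 27.4 and 22.9 CPM in WT drug. In p53 KO it was 1.23 and 0.305 CPM with vehicle and 27.8 and 8.59 CPM with drug, so line 1 reached the WT level and line 2 did not. In Dux KO it was 1.16 CPM with vehicle and 17.3 and 24.6 CPM with drug. The folds were 15.6 in WT, 14.7 in p53 KO and 12.9 in Dux KO, and all 6 drug libraries lay above all 5 vehicle libraries. The p53 KO response differed from the WT response by -0.05 on the log2 scale (edgeR adjusted p 1), with no direction that held when libraries were left out. Mlkl, which carries out necroptosis, was also a member but with a different pattern: 0.0739 and 0.209 CPM became 22.9 and 21.2 CPM in WT, 0.714 and 0.061 CPM became 5.85 and 2.23 CPM in p53 KO, and 0.0352 CPM became 8.92 and 11.1 CPM in Dux KO. Its p53 KO response was lower than that of WT by a log2 difference of -4.02 that missed the threshold (edgeR adjusted p 0.051) and passed it in several alternatives, DESeq2 and the knockout line as a block among them.

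Igtp and Irgm2, GTPases of cell-autonomous immunity, were higher with drug in all genotypes, with folds of 9.37, 6.12 and 9.7 for Igtp and 4.98, 6.49 and 5.35 for Irgm2 in WT, p53 KO and Dux KO. Igtp went from 1.85 and 1.61 CPM to 22.2 and 18.6 CPM in WT, from 1.98 and 1.52 CPM to 12.1 and 14.4 CPM in p53 KO, and from 1.21 CPM to 17.7 and 14.6 CPM in Dux KO. Irgm2 went from 4.07 and 3.98 CPM to 23.7 and 20.3 CPM in WT, from 5.13 and 3.66 CPM to 29.4 and 33.1 CPM in p53 KO, and from 3.03 CPM to 20.2 and 16.5 CPM in Dux KO. Irgm2 thus had its highest drug libraries in p53 KO. The annotated spans of both genes overlap and counts cover whole spans without strand, so part of their counts may be the same reads. Their p53 KO responses differed from WT by log2 -0.85 and 0.17, neither called (edgeR adjusted p 0.11 and 0.77), while the line block brought Igtp past the threshold.

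Of the interferon and nucleic-acid sensing list, 55 genes were tested and Zbp1, Igtp, Irgm2 and Mlkl were the members. Over the list, 22 genes were called higher and 16 lower with drug in WT, 25 and 0 in p53 KO, and 13 and 7 in Dux KO. The median log2 response was 0.94 in WT, 1.65 in p53 KO and 0.70 in Dux KO, where all genes tested had medians of 0.13, 0.18 and 0.00. Beside this and the list counts that follow, the shares of all genes called higher with drug are the 29%, 9.31% and 14.5% given above, and 23.4% were called lower in WT, 8.09% in p53 KO and 11.9% in Dux KO. The p53 KO response of the list's genes was called higher than that of WT in 17 and lower in 2, with a median log2 difference of 1.01 (over all genes tested, 9.9% were called higher, 10.3% lower, median 0.05).

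Members of the antigen presentation list were Tap1, the peptide transporter of MHC class I loading, Nlrc5, the activator of MHC class I genes, and Ciita, the activator of MHC class II genes. Tap1 was 3.25 and 3.28 CPM in WT vehicle and 242 and 214 CPM in WT drug, 0.195 and 0.488 CPM in p53 KO vehicle and 5.37 and 2.75 CPM in p53 KO drug, and 1.58 CPM in Dux KO vehicle and 202 and 208 CPM in Dux KO drug. The p53 KO drug level lay near the WT vehicle level, and the Dux KO drug level near that of WT drug. The response in p53 KO was lower than in WT by log2 -2.75 (SE 0.61, edgeR adjusted p 0.013), a call that was lost without p53 KO vehicle library 2. Tap1 overlaps Psmb9, so they may share reads. Nlrc5 went from 1.22 and 1.19 CPM to 103 and 113 CPM in WT, from 0.176 CPM to 36.4 and 42.3 CPM in Dux KO and from 1.23 and 0.305 CPM to 5.37 and 2.15 CPM in p53 KO. Its p53 KO response was lower by log2 -4.37 (SE 0.82, edgeR adjusted p 0.0062), lost without p53 KO vehicle library 1. Ciita reached 17.1 and 14.4 CPM in WT drug, 17 and 11.8 CPM in Dux KO drug and 1.79 and 4.86 CPM in p53 KO drug, from at most 2.02 CPM with vehicle. Over the 19 genes of the list tested, 9 were called higher and 2 lower in WT, 9 and 0 in p53 KO, and 7 and 0 in Dux KO. The p53 KO response was called higher than that of WT in 3 of them and lower in 5, with a median log2 difference of -0.79. Over all genes tested those shares were 9.9% and 10.3%.

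**Figure D2:**
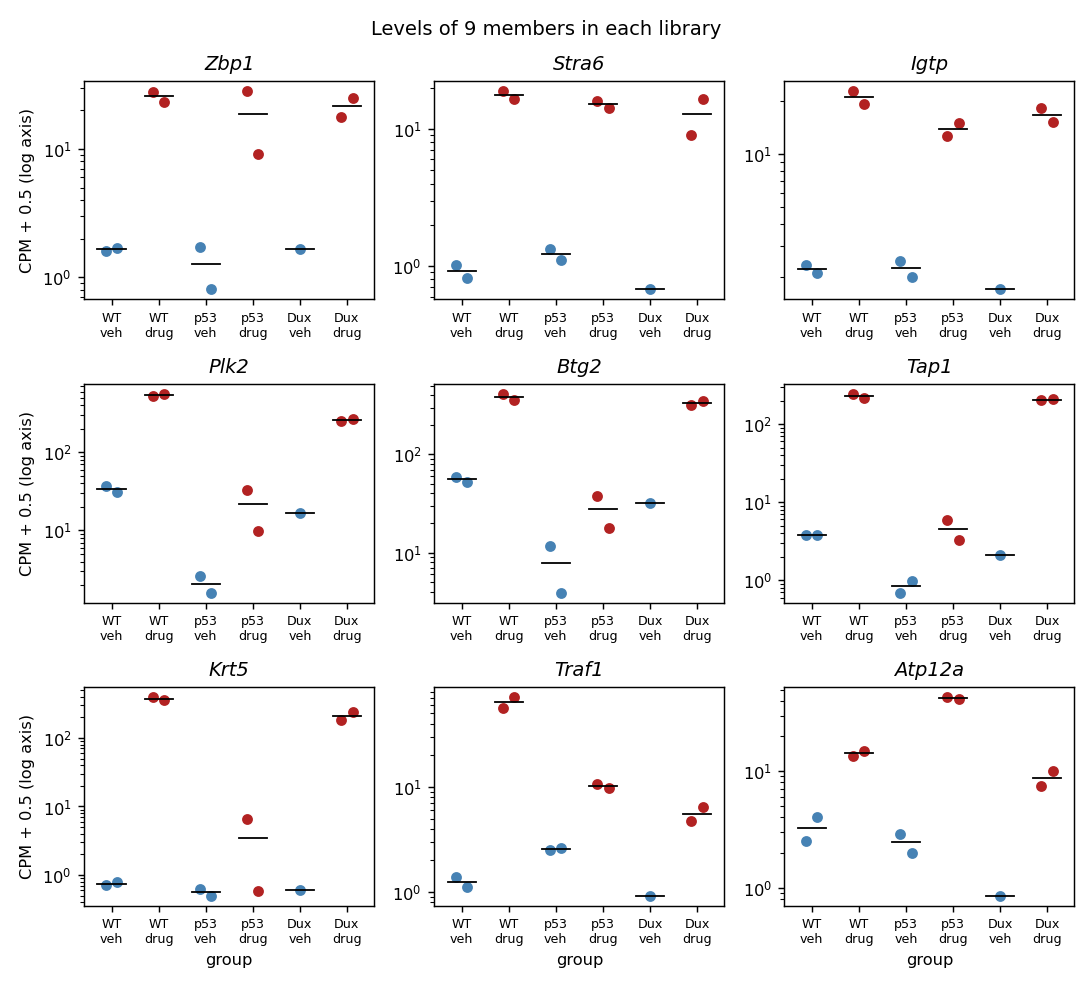
CPM + 0.5 on log axes for 9 members in each of the 11 libraries, by group (veh, vehicle; drug, doxorubicin); points are libraries and bars are group means, with 1 library in Dux KO vehicle. The drug libraries of Zbp1 overlap between genotypes except for a lower p53 KO library (8.59 CPM), Plk2, Btg2, Tap1 and Krt5 are lower in p53 KO drug than in WT and Dux KO drug, Traf1 is lower in both knockouts, and Atp12a is highest in p53 KO drug.

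Stra6, the receptor through which cells take up retinol, ranked second. It went from 0.517 and 0.314 CPM to 18.4 and 16.1 CPM in WT, from 0.844 and 0.61 CPM to 15.6 and 13.8 CPM in p53 KO and from 0.176 CPM to 8.5 and 16 CPM in Dux KO. Every drug library was at least 8.5 CPM and every vehicle library under 1 CPM. Its p53 KO response differed from WT by log2 -1.24 (edgeR adjusted p 0.15), past the threshold only with the line block among the alternatives run. It overlaps Ccdc33. Retsat, the enzyme that saturates retinol, was a member of far higher level, with 28.9 and 27.8 CPM in WT vehicle and 331 and 289 CPM in WT drug. In p53 KO, Retsat had 22.9 and 15.6 CPM with vehicle and 78.2 and 51.4 CPM with drug.

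In 27 of the 200 members the 3 folds on CPM + 0.5 lay within a factor of 1.5. Efemp1, an extracellular matrix protein, had folds of 9.48 in WT, 9.36 in p53 KO and 10.9 in Dux KO. Its levels were not equal: Efemp1 had 2.88 and 2.09 CPM in WT vehicle but 0.39 and 0.122 CPM in p53 KO vehicle, and 29.7 and 26 CPM in WT drug but 5.59 and 7.56 CPM in p53 KO drug. The p53 KO vehicle mean of 0.256 CPM is below the 0.5 CPM added to each level, which lowers that fold. The fitted log2 responses of Efemp1 were 3.36 in WT and 4.33 in p53 KO, a difference of 0.98 that was not called (edgeR adjusted p 0.27). By contrast, A730082K24Rik, annotated as a long intergenic noncoding RNA, reached 18.8 and 18.2 CPM in WT drug, 24.9 and 16.6 CPM in p53 KO drug and 12.2 and 12.6 CPM in Dux KO drug, so WT and p53 KO overlapped in level too. Zfp612, a zinc finger gene, had 9.84 and 8.79 CPM in WT drug, 11.7 and 13.7 CPM in p53 KO drug and 10.5 and 11.3 CPM in Dux KO drug, from 1.95 to 3.05 CPM with vehicle.

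The p53 KO response was compared with the WT response by the interaction in the edgeR fit. This uses the libraries that chose the members, and the choice set a floor under each genotype's fold, so the counts describe the members and are no independent test of them. Of the 200, 69 had a lower response in p53 KO than in WT (10.3% of all genes tested were called lower) and 1 had a higher response (9.9% of all genes). The median log2 difference over the members was -1.24, against 0.05 over all genes tested. With the knockout line as a block 123 members were called lower, and 109 with the recovered library added. Leaving out WT vehicle library a or b, or WT drug library a or b, gave 44, 42, 43 and 43.

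**Figure D3:**
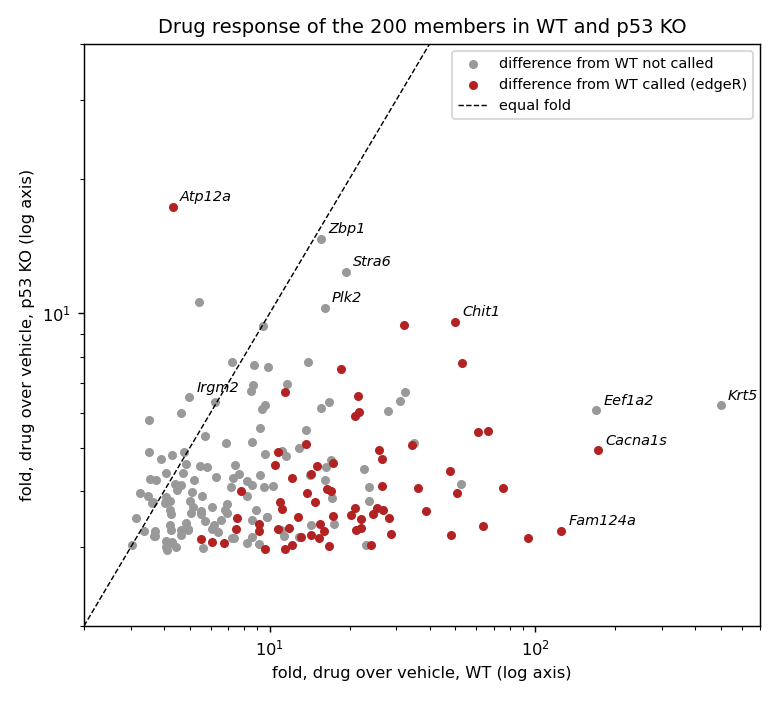
Fold of drug over vehicle in WT (x) and p53 KO (y), (drug + 0.5)/(vehicle + 0.5) of mean CPM on log axes, one point per member; red marks members whose response differed from WT by the edgeR interaction and the dashed line marks equal folds. Points spread from 3.04 to 499 in WT and from 2.96 to 17.3 in p53 KO, with Atp12a alone among red points above the line.

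Fam124a and Cacna1s had the largest differences. Cacna1s, a subunit of the calcium channel of skeletal muscle, went from 0.887 and 0.489 CPM to 195 and 213 CPM in WT but from 1.17 and 0.732 CPM to 10.7 and 2.66 CPM in p53 KO. The difference was log2 -5.57 (SE 0.91, edgeR adjusted p 0.0035). Fam124a went from 0.813 and 1.33 CPM to 183 and 210 CPM in WT and from 1.36 and 1.28 CPM to 8.42 and 2.49 CPM in p53 KO, a difference of -5.63 (SE 0.77, edgeR adjusted p 0.0016). In both genes vehicle levels overlapped between WT and p53 KO, and drug levels did not. Sbsn, an epidermal secreted protein, went from 4.92 and 3.66 CPM to 470 and 428 CPM in WT and from 1.98 and 2.47 CPM to 12.4 and 3.82 CPM in p53 KO, a log2 difference of -5.01 (SE 0.69, edgeR adjusted p 0.0017). Each of these 3 calls held under every alternative that was run.

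Other members with a lower p53 KO response had the same form. Gpnmb, a glycoprotein of lysosomes and melanosomes, reached 146 and 136 CPM in WT drug and 16.8 and 7 CPM in p53 KO drug (log2 difference -4.64, SE 0.82, edgeR adjusted p 0.005). Nfam1, an immune receptor with a signalling motif, reached 152 and 166 CPM in WT drug and 15.2 and 8.25 CPM in p53 KO drug (-2.73, SE 0.52, edgeR adjusted p 0.007). Cdkn1c, the cyclin-dependent kinase inhibitor p57, reached 28.8 and 30.2 CPM in WT drug, 4.55 and 6.79 CPM in p53 KO drug and 8.94 and 10.7 CPM in Dux KO drug (p53 KO minus WT -2.86, SE 0.34, edgeR adjusted p 0.00084). In each of the 3 genes the p53 KO drug libraries lay below the WT drug libraries and above all vehicle libraries.

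Atp12a, a proton and potassium pump, was the member with a higher response in p53 KO. It had 2 and 3.56 CPM in WT vehicle and 13 and 14.4 CPM in WT drug, but 2.4 and 1.49 CPM in p53 KO vehicle and 42.7 and 40.9 CPM in p53 KO drug. The log2 difference was 1.92 (SE 0.48, edgeR adjusted p 0.022), and it missed the threshold without WT vehicle library b, WT drug library a or b, or p53 KO vehicle library 2. In Dux KO, Atp12a went from 0.352 CPM to 6.93 and 9.56 CPM. That response was also higher than in WT, by log2 2.14, and was not called (edgeR adjusted p 0.072). In 18 members the p53 KO drug mean was not below the WT drug mean, among them Tinagl1, a matrix protein chosen here after its values were seen, with 31 and 33.3 CPM in WT drug and 66.1 and 57.9 CPM in p53 KO drug.

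The p53 target list gave 5 members: Plk2, a polo-like kinase, Ephx1, an epoxide hydrolase, Ptprv, a receptor-type tyrosine phosphatase, Btg2, an antiproliferative protein, and Abhd4, a lipid hydrolase. Their p53 KO means were higher with drug than with vehicle, as the choice required, although Ptprv in p53 KO line 2 had 0.305 CPM with vehicle and 0.688 CPM with drug. Plk2 (ENSMUSG00000021701, chromosome 13, 110395046 to 110400844, plus strand, GRCm38) had 36.5 and 30.2 CPM in WT vehicle and 530 and 557 CPM in WT drug. In p53 KO it had 2.08 and 1.1 CPM with vehicle and 32.6 and 9.37 CPM with drug, and in Dux KO 16 CPM with vehicle and 253 and 264 CPM with drug. The folds were 16.1, 10.3 and 15.7, while 1 of the 2 p53 KO drug libraries lay below both WT vehicle libraries. Ephx1 had 20.8 and 21.5 CPM in WT vehicle, 224 and 190 CPM in WT drug, 1.43 and 1.1 CPM in p53 KO vehicle and 13.6 and 7.39 CPM in p53 KO drug. Both p53 KO drug libraries of Ephx1 were thus below both WT vehicle libraries. Btg2 had 57.9 and 52.3 CPM in WT vehicle and 411 and 360 CPM in WT drug, and 11.2 and 3.41 CPM in p53 KO vehicle and 37.6 and 17.4 CPM in p53 KO drug, again below WT vehicle. Abhd4 had 40.1 and 34.5 CPM in WT vehicle, 278 and 232 CPM in WT drug, 16.6 and 15.6 CPM in p53 KO vehicle and 60.9 and 39.8 CPM in p53 KO drug.

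The difference between p53 KO and WT under vehicle is a different contrast, but its libraries are the denominators of the folds that chose the members. With that limit, 25 members were lower in p53 KO vehicle than in WT vehicle (0.747% of all genes tested were called lower) and 0 were higher (0.14% of all genes; 4 by DESeq2). The median log2 difference was -0.57. Ephx1 differed by log2 -4 (SE 0.33, edgeR adjusted p 0.0015), Plk2 by -4.33 (SE 0.59, edgeR adjusted p 0.015) and Btg2 by -2.84 (SE 0.53, edgeR adjusted p 0.05 after rounding). Ptprv, at 24 and 21.8 CPM in WT vehicle and 1.75 and 0.305 CPM in p53 KO vehicle, differed by -4.42 and was not called (SE 1.12, edgeR adjusted p 0.12), and Abhd4 by -1.15 (edgeR adjusted p 0.059). The largest difference of the named members was that of 9530053A07Rik, with 16.9 and 17.3 CPM in WT vehicle and 0.422 and 0.305 CPM in p53 KO vehicle (log2 -5.49, SE 0.63, edgeR adjusted p 0.007). The count of 25 was 71 with the line block, 62 with the block and the recovered library, and 47 by DESeq2. It was 3 or 4 without WT vehicle library a or b, 10 or 13 without WT drug library a or b, 14 without either Dux KO drug library, and 41 or 42 without p53 KO drug library 1 or 2. The Ephx1 call held in every alternative run; the Plk2 call was lost without WT vehicle library a or b, WT drug library a or p53 KO vehicle library 2, the call of 9530053A07Rik without either WT vehicle library, and that of Btg2 in 9 of the leave-one-out and recovered-library fits.

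Over the 46 genes of the p53 target list tested, 34 were called higher and 3 lower with drug in WT, 30 and 1 in Dux KO, and 9 and 3 in p53 KO. The interaction was called lower in p53 KO for 18 of them and higher for 1, with a median log2 difference of -1.07. The 5 members are the genes of the list that passed both thresholds in every genotype and ranked high enough by smallest fold. Other genes of the list may have passed both thresholds at a lower rank, so absence from the members does not mean failure in p53 KO. Of the 5 members only Abhd4 had a called difference of response, log2 -1.31 (SE 0.31, edgeR adjusted p 0.018). The Abhd4 call was lost without WT vehicle library a or b or WT drug library a. The p53 KO response of Plk2 differed from that of WT by -0.47 (edgeR adjusted p 0.72).

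**Figure D4:**
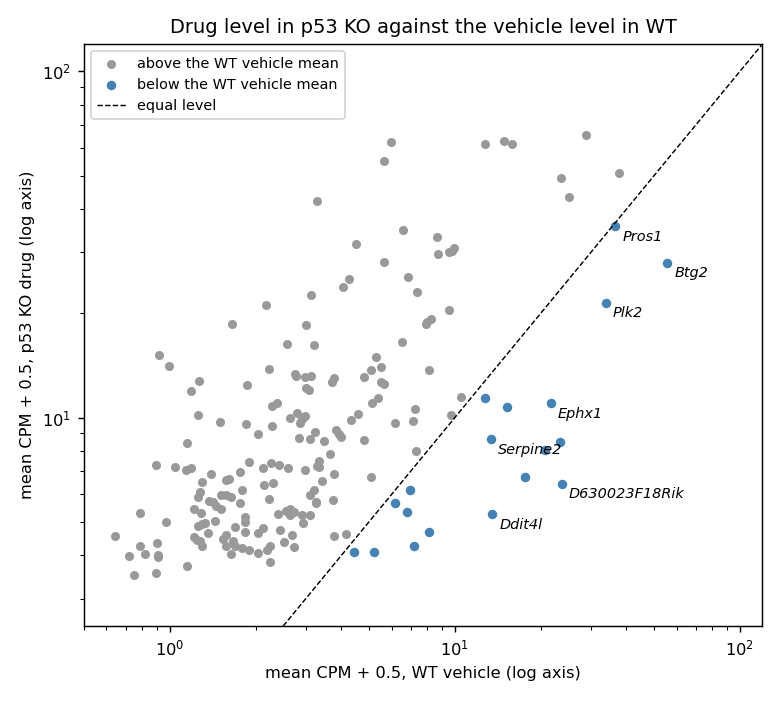
Mean level of each member in WT vehicle (x) and p53 KO drug (y) as CPM + 0.5 on log axes; blue points lie under the dashed line of equal level. In 19 members the p53 KO drug mean was below the WT vehicle mean, among them Plk2, Btg2 and Ephx1.

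In 19 of the 200 members the p53 KO mean with drug stayed below the WT mean without drug, and in 182 it was below the WT mean with drug. It was under 50% of the WT drug mean in 141 members and under 20% in 80, with a median of 26.7%. In Dux KO the drug mean was under 50% of that of WT in 45 members and under 20% in 11, and in 0 members it was below the WT vehicle mean. Over all genes tested, the p53 KO drug mean was below the WT vehicle mean in 28.2%. The other shares of this paragraph were not computed over all genes tested, so those counts only describe the members. Beside Plk2, Ephx1, Btg2 and Ptprv, the 19 included Serpine2, a protease inhibitor of the matrix (WT vehicle mean 12.9 CPM, p53 KO drug mean 8.17 CPM), and Ddit4l, an inhibitor of mTORC1 signalling (13 and 4.76 CPM). Hmcn2 and Pros1, chosen here after their values were seen, had WT vehicle means of 20.3 and 36 CPM and p53 KO drug means of 7.57 and 35.2 CPM. For Pros1 only line 1 lay below WT vehicle: p53 KO drug lines 1 and 2 had 24.3 and 46.1 CPM, beside 39.1 and 32.9 CPM.

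The 2 p53 KO lines were also set side by side. The fold was at least 2 in both lines in 188 members, in line 1 alone in 10 and in line 2 alone in 2. The drug level, with 0.5 CPM added to both, was over 3 times higher in line 1 in 18 members and over 3 times higher in line 2 in 14. These counts were not computed over all genes tested, so they only describe the members. Without regard to size, the drug level was higher in line 1 in 114 members (57%, against 42.9% of all genes tested). Some of the highest-level members reached their p53 KO drug mean through line 1. Krt5, the keratin of basal epithelial cells, had 0.222 and 0.279 CPM in WT vehicle, 392 and 356 CPM in WT drug, 0.106 CPM in Dux KO vehicle and 179 and 239 CPM in Dux KO drug. In p53 KO drug it had 5.96 CPM in line 1 and 0.0859 CPM in line 2, so line 2 stayed at the vehicle level (0.13 and 0 CPM), and line 1 reached 1.59% of the WT drug mean. Its response in p53 KO was lower than in WT by log2 -5.13, not called (edgeR adjusted p 0.4), and called with the line block and without either p53 KO drug library. Eef1a2, a translation elongation factor of nerve and muscle, had 130 and 112 CPM in WT drug, 60.9 and 75.9 CPM in Dux KO drug, and 6.56 and 0.43 CPM in p53 KO drug lines 1 and 2. Serpine2 had 395 and 354 CPM in WT drug and 15.1 and 1.29 CPM in p53 KO drug, and Ptprv had 225 and 204 CPM and 15.3 and 0.688 CPM.

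**Figure D5:**
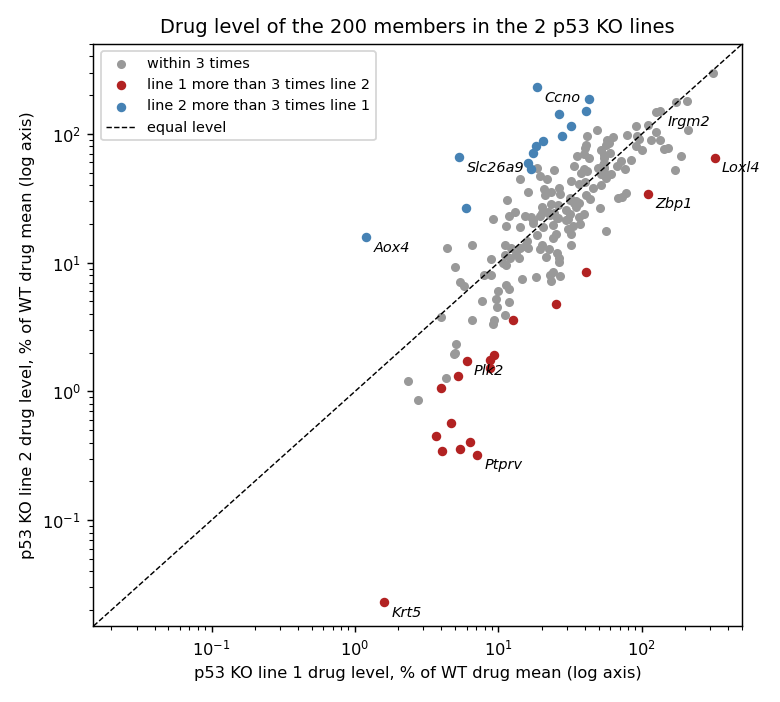
Drug level of each member in p53 KO line 1 (x) and line 2 (y) as a percentage of the WT drug mean, on log axes; red, over 3 times higher in line 1 after 0.5 CPM is added to both levels; blue, the same for line 2; dashed, equal. Krt5 stands at 1.59% and 0.023%, and 18 members are red and 14 blue.

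Line 1 also had more Trp53 RNA (103 against 51.3 CPM with drug) and more Duxf3 RNA (4.25 against 0.859 CPM) than line 2; the part of either in these levels was not tested. Other members were higher in line 2. Slc26a9, a chloride transporter, had 12.8 and 12.3 CPM in WT drug, 12.2 and 13.7 CPM in Dux KO drug, and 0.671 and 8.25 CPM in p53 KO drug lines 1 and 2. Gata3, a transcription factor of the trophectoderm, had 12.8 and 16.3 CPM in WT drug, 2.53 and 10.4 CPM in p53 KO drug and 1.61 and 5.01 CPM in Dux KO drug. The summed trophectoderm markers given above also differed between these groups, and their part in the Gata3 level was not tested. Ccno, a cyclin of multiciliated cells chosen here after its values were seen, had 1.36 and 2.8 CPM in p53 KO vehicle and 1.56 and 19.3 CPM in p53 KO drug, so line 1 alone would not have passed. Without p53 KO drug library 1, 162 of the 200 still passed both thresholds, and 177 without library 2.

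Among early response genes, Ctgf and Cyr61, matricellular proteins that respond to YAP and TEAD, were members together with Btg2. Ctgf had 12.6 and 12 CPM in WT vehicle and 219 and 253 CPM in WT drug, 6.56 and 8.9 CPM in p53 KO vehicle and 55.2 and 67.6 CPM in p53 KO drug, and 8.17 CPM in Dux KO vehicle and 36.1 and 73.4 CPM in Dux KO drug. WT drug libraries lay above those of both knockouts, which overlapped. The p53 KO response was lower than that of WT by log2 -1.49 (SE 0.41, edgeR adjusted p 0.033), lost without WT vehicle library a or b, WT drug library a or b, p53 KO vehicle library 2 or p53 KO drug library 1 and with the recovered library added. The Dux KO response was lower by -1.62 and not called (edgeR adjusted p 0.071), but called by DESeq2 and with the recovered library. Cyr61 had 87.5 and 91.2 CPM in WT drug, 19.4 and 40.1 CPM in p53 KO drug and 55.6 and 60.9 CPM in Dux KO drug, from 3.31 to 10.9 CPM with vehicle, the recovered library included. Of the 37 genes of the immediate early list tested, 23 were called higher and 4 lower in WT, 9 and 1 in p53 KO, and 13 and 5 in Dux KO.

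Further members of high rank or from the gene lists had their own levels. Sez6, a membrane protein of neurons, had 50.7 and 44.3 CPM in WT drug, 8.2 and 10.2 CPM in p53 KO drug and 44.8 and 52.2 CPM in Dux KO drug, from at most 1.33 CPM with vehicle. Art3, of the ADP-ribosyltransferase family, had 38.3 and 33.6 CPM in WT drug, 6.11 and 19.3 CPM in p53 KO drug and 21.3 and 24.4 CPM in Dux KO drug. In both genes the p53 KO drug libraries lay below those of WT and Dux KO.

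The next 4 members are membrane transporters and channels, each lower in p53 KO drug than in WT and Dux KO drug. Slc4a11, a transporter of the corneal endothelium, had 324 and 276 CPM in WT drug, 305 and 318 CPM in Dux KO drug and 64 and 33.3 CPM in p53 KO drug. Slc7a8, an amino-acid transporter, had 71.3 and 62.6 CPM in WT drug, 14.5 and 32.3 CPM in Dux KO drug and 3.35 and 6.19 CPM in p53 KO drug. P2rx7, a channel opened by ATP, had 55.9 and 50.9 CPM in WT drug, 92.4 and 93.7 CPM in Dux KO drug and 11 and 10.1 CPM in p53 KO drug. P2rx7 thus had Dux KO drug libraries above those of WT, and Slc7a8 below. Scn4a, the sodium channel of skeletal muscle, had 13.1 and 10.5 CPM in WT drug, 12.9 and 13.9 CPM in Dux KO drug and 4.66 and 2.84 CPM in p53 KO drug.

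Among matrix and signalling genes, Col27a1, a fibrillar collagen, had 43.9 and 40.1 CPM in WT drug, 8.2 and 5.33 CPM in p53 KO drug and 41 and 34.4 CPM in Dux KO drug. Lama3, a laminin chain of basement membranes, had 48.1 and 48 CPM, 9.43 and 22.5 CPM, and 26.8 and 35 CPM in the same groups. Plat, the tissue plasminogen activator, had 25.3 and 28.4 CPM in WT drug, 8.64 and 3.7 CPM in p53 KO drug and 2.48 and 5.44 CPM in Dux KO drug, so both knockouts lay below WT. Id2, an inhibitor of basic helix-loop-helix factors, also had WT drug (46 and 49.5 CPM) above p53 KO drug (11.7 and 25 CPM) and Dux KO drug (15.8 and 18.7 CPM). S1pr1, a receptor of sphingosine-1-phosphate, had 22.6 and 21.2 CPM in WT drug, 4.55 and 8.16 CPM in p53 KO drug and 11.5 and 13.2 CPM in Dux KO drug, from a Dux KO vehicle level of 3.38 CPM above the other vehicle libraries. Arhgef28, a guanine nucleotide exchange factor, had 56.9 and 54.6 CPM in WT drug, 2.46 and 7.26 CPM in p53 KO drug and 36.5 and 41.3 CPM in Dux KO drug. Rasl11a, a small GTPase of the Ras type, had 33 and 22.9 CPM, 5.59 and 3.87 CPM, and 7.64 and 8.94 CPM in the same groups. In each of these matrix and signalling genes both p53 KO drug libraries lay below both WT drug libraries.

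The unnamed transcript D630023F18Rik had 248 and 207 CPM in WT drug, 120 and 139 CPM in Dux KO drug, and 10.6 and 1.29 CPM in p53 KO drug lines 1 and 2. The pseudogene Zfp133-ps had 20.4 and 18 CPM in WT drug, 6.04 and 5.89 CPM in p53 KO drug and 9.88 and 14.9 CPM in Dux KO drug. B3galt5, a galactosyltransferase, had 3.58 and 4.26 CPM in WT drug and 6.71 and 2.06 CPM in p53 KO drug, and Grap2, an adaptor of T cell signalling, 4.27 and 3.02 CPM and 0.969 and 5.16 CPM. In B3galt5 and Grap2 the WT drug libraries lay between those of the p53 KO lines, with line 1 the higher for B3galt5 and line 2 for Grap2.

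The Dux KO response differed from that of WT in fewer members. It was called higher in 6 (3%, against 2.1% of all genes tested) and lower in 3 (1.5%, against 3.15%). The median log2 difference was 0.26 over the members and 0.06 over all genes. Both shares are near or below those over all genes tested, so these calls describe single genes and not the set. All of these differences rest on the single Dux KO vehicle library of the count table. The 3 lower were Traf1, Reln and Antxr1. Traf1, an adaptor of tumour necrosis factor receptors, had 0.887 and 0.628 CPM in WT vehicle and 56.1 and 70.9 CPM in WT drug, and 0.423 CPM in Dux KO vehicle and 4.21 and 5.91 CPM in Dux KO drug. It had 2.01 and 2.13 CPM in p53 KO vehicle and 10.1 and 9.28 CPM in p53 KO drug. The Dux KO response was lower by log2 -2.92 (SE 0.46, edgeR adjusted p 0.01), lost without WT vehicle library b or WT drug library b, and the p53 KO response by -4.38 (SE 0.39, edgeR adjusted p 0.00035), which held in every alternative run.

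Reln, a secreted matrix glycoprotein, had 35.2 and 34.5 CPM in WT drug, 2.27 and 4.73 CPM in p53 KO drug and 4.9 and 5.94 CPM in Dux KO drug (Dux KO minus WT -3.69, SE 0.70, edgeR adjusted p 0.021). Antxr1, a receptor that binds matrix and anthrax toxin, had 182 and 213 CPM in WT drug, 15.2 and 9.93 CPM in p53 KO drug and 13.7 and 17.2 CPM in Dux KO drug (-2.62, SE 0.60, edgeR adjusted p 0.04). In both Reln and Antxr1, WT drug stood above both knockouts, whose drug libraries lay close to each other. Neither Dux KO call held without any 1 of the 4 WT libraries or the 2 Dux KO drug libraries. Cacna1s had the same order of levels, with 6.06 and 6.02 CPM in Dux KO drug beside 195 and 213 CPM in WT drug. Its Dux KO vehicle level of 0.0352 CPM was also below WT vehicle, and the Dux KO response of Cacna1s differed from that of WT by log2 -1.01, not called (edgeR adjusted p 0.89). Chit1, a chitinase, did likewise, with 45 and 53.2 CPM in WT drug, 15.4 and 11.7 CPM in p53 KO drug and 4.76 and 7.15 CPM in Dux KO drug. Chit1 differed from WT by -3.00 in p53 KO (SE 0.62, edgeR adjusted p 0.0099) and by -0.93 in Dux KO (edgeR adjusted p 0.62), where its vehicle level of 0.106 CPM was also lower than the 0.259 and 0.733 CPM of WT.

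Of the 6 with a higher Dux KO response, C4b, a complement protein, went from 1.29 and 0.872 CPM to 52.8 and 44.4 CPM in WT and from 0.0704 CPM to 35 and 51 CPM in Dux KO. Its drug levels overlapped between WT and Dux KO, and the difference of log2 3.61 (SE 0.64, edgeR adjusted p 0.016) came with a lower vehicle level. C4b has a near-identical neighbour, so its counts are uncertain, and the call was lost with the recovered library (2.43), and without Dux KO drug library 2, WT vehicle library a or WT drug library b. Dnaic1, an axonemal dynein chain, had 3.18 and 4.12 CPM in WT vehicle and 19.5 and 11.8 CPM in WT drug, and 1.76 CPM in Dux KO vehicle and 66.2 and 49.7 CPM in Dux KO drug. Here the Dux KO drug libraries lay above those of WT (log2 difference 2.86, SE 0.53, edgeR adjusted p 0.019), and the call was lost without either Dux KO drug library, either WT vehicle library or WT drug library b. Parp10 (2.00), Prdm11 (1.40), Mapre3 (1.49) and Slc6a16 (1.10) were the others; Parp10 overlaps Plec, and its difference was 0.30 with the recovered library. The calls of Parp10, Mapre3 and Slc6a16 were lost with the recovered library and without any 1 of the 4 WT or 2 Dux KO drug libraries, and that of Prdm11 without either Dux KO drug library, either WT vehicle library or WT drug library b. With the line block the counts were 32 higher and 20 lower, with the block and the recovered library 20 and 20, with the recovered library alone 3 and 7, and by DESeq2 14 and 12. The 6 and 3 became 0 to 3 and 0 or 1 without a single WT library, 2 and 1 without Dux KO drug library 1, and 0 higher without Dux KO drug library 2, and 10 and 6 or 17 and 9 without a p53 KO vehicle or a p53 KO drug library.

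Under vehicle, 6 members were lower in Dux KO than in WT (0.346% of all genes tested) and 0 were higher (0.656%; 2 by DESeq2): C4b (log2 -3.82), Atp12a (-2.92), Parp10 (-2.31), Cdkn1c (-1.96), Slc16a10 (-1.84) and Prdm11 (-1.15), with edgeR adjusted p from 0.037 to 0.045. Parp10 had 0.317 CPM in the Dux KO vehicle library used and 1.58 CPM in the recovered one, beside 1.33 and 1.95 CPM in WT vehicle. None of the 6 calls held without a Dux KO drug or WT library. The count was 81 with the line block, 56 with the block and the recovered library, 39 by DESeq2, 12 without a p53 KO vehicle library and 25 without a p53 KO drug library.

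Some features of the members were set beside those of all genes tested, without a test. Of the 200, 190 are protein-coding (95%, against 62.9% of genes tested, and 85.1% of those tested without the Gm-numbered genes that the choice set aside). The median gene span was 33118 bases, and 34203 bases for the protein-coding members, against 13502 and 22813 bases over all genes tested. Without Gm-numbered genes the median span of genes tested was 20269 bases. The vehicle level is the denominator of the folds that chose the members, so it is given only as a description. It had a median of 1.73 CPM as a mean over the genotypes, against 3.57 CPM over all genes tested, and 115 members were under 3 CPM with vehicle in all 3 genotypes. Members were spread over 20 chromosomes, with 16 pairs of members overlapping or within 100 kb of each other. Sbsn and Krtdap, both genes of epidermal differentiation, lie 31762 bases apart, Btg2 and Chit1 32122 bases, Slc26a9 and Pm20d1 25877 bases, and Nlrc5 and Cpne2 5718 bases. Neighbours did not follow the same pattern throughout: Sbsn had 191 and 268 CPM in Dux KO drug and Krtdap 5.51 and 14.2 CPM, while in p53 KO drug Krtdap had 32.6 and 11.6 CPM and Sbsn 12.4 and 3.82 CPM. Of the 200, 67 overlap another gene with at least 10% of their own counts, so that part of their counts may come from that gene (33.5%, against 42.6% of genes tested).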

How the data were processed

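Poly(A) RNA was measured in 12 libraries, 6 groups of 2 by the labels. The authors deposited counts, whole numbers per Ensembl gene, which were used unchanged; the authors deposited FPKM values of the same libraries, used for checks and for 1 missing library. The submitters' processing notes name TopHat2, DESeq and DESeq2 with build mm10; no counting program, annotation or strand option is given in the sources used here. On the values, the length implied by count and FPKM was within 1% of the whole gene span in 98% to 98.2% of 10563 genes over 200 counts, so FPKM divides by the whole span. For genes of 200 counts or more that lie wholly in an intron of another gene, the outer gene's count was at least as large in all 11 libraries in 389 of 389 pairs on the same strand and 612 of 615 on opposite strands, as counts over whole spans without strand would give, so overlapping genes may share reads. Odd numbers made up 26.4% to 33.4% of the counts from 500 upward, so a count is not always 1 independent read. The part of counting in the spread was not tested. Folds and differences of members near 0 CPM with vehicle rest on few counts, such as those of C4b in Dux KO (0.0704 CPM). Names and positions come from GENCODE M21 (54495 of 54532 identifiers matched).

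The count column of Dux KO vehicle library 2 repeats another column and was left out. Its counts were recovered from FPKM as an alternative (54956766 reads; 99.78% of 2313 low values within 0.15 of a whole read; 96.5% of genes within 1 read or 1% in a library of known counts). Levels and folds are CPM by column total. Tests used edgeR 4.0.16 in R 4.3.3 (TMM, filterByExpr with a minimum count of 10, 1 mean per group, glmQLFit and glmQLFTest, 5 residual degrees of freedom) over 28643 genes with Benjamini-Hochberg adjustment, called at an adjusted p under 0.05. The standard error (SE) is the log2 difference divided by the root of the F statistic. The test was checked on simulated data with the same spread for every gene and no difference between knockout lines. That check does not cover lines that differ, as those of p53 KO do. Alternatives were DESeq2 1.42.0, RLE factors, no filter on low counts, the knockout line as a block, the recovered library, and each library left out; the block together with the recovered library was added after seeing the data. Knockout line numbers pair the samples: deviations of same-numbered vehicle and drug libraries correlated at 0.432 in p53 KO and 0.184 in Dux KO over 28643 genes. WT libraries carry no numbers and stayed unpaired. The lines give at most 2 units per knockout, and p-values measure the spread between these libraries.

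The members and gene lists were chosen with earlier results of these data known. Genes named were drawn from the 12 members with the largest smallest fold, the 12 of highest drug level, members of the gene lists, the 4 largest and 4 smallest differences of response for each knockout, the last 3 ranks inside and the first 3 outside, and members with a printed promoter; a gene of these sets is not reported here, and others are said to be chosen after their values were seen or are named for their call.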

Additional observations from a re-analysis of the deposited data

Results flagged for a closer look

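Values here are log2 knockout response minus WT response. The p53 KO list is not complete: of the 69 members called lower it holds only those whose difference is given above. The following members had a response in a knockout that differed from the response in WT by the interaction term of the edgeR fit. In p53 KO these were Fam124a (-5.63), Cacna1s (-5.57), Sbsn (-5.01), Gpnmb (-4.64), Traf1 (-4.38), Nlrc5 (-4.37), Chit1 (-3.00), Cdkn1c (-2.86), Tap1 (-2.75), Nfam1 (-2.73), Ctgf (-1.49), Abhd4 (-1.31) and, in the other direction, Atp12a (1.92). In Dux KO these were Reln (-3.69), Traf1 (-2.92) and Antxr1 (-2.62), and in the other direction C4b (3.61), Dnaic1 (2.86), Parp10 (2.00), Mapre3 (1.49), Prdm11 (1.40) and Slc6a16 (1.10).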

How the results depend on the processing

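The 3 calls of a lower p53 KO response in Fam124a, Cacna1s and Sbsn, those in Traf1, Gpnmb, Chit1, Nfam1 and Cdkn1c, and the lower vehicle level of Ephx1 in p53 KO held under every alternative run. The counts of members called higher with drug stayed within 1.5 times under every alternative run, with 187 to 199 in WT, 141 to 173 in p53 KO and at least 166 in Dux KO when libraries were left out. The other counts moved with the setting; the cause was not tested, except that leaving out a library leaves fewer samples. Over the single-gene tests, 655 values kept direction and side of the threshold, 140 lost the call, 44 gained it and 9 changed sign. Where an alternative gave no adjusted p, a value of unchanged direction was counted as kept. Scaling by RLE factors changed no count by more than 1.5 times. Without Dux KO vehicle library 1 no Dux KO difference could be had.

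With the knockout line as a replicate block (in brackets, with the recovered library also added), members with a lower p53 KO response numbered 123 (109) in place of 69, and members lower or higher in p53 KO vehicle 71 (62) and 12 (7) in place of 25 and 0. Members with a higher or lower Dux KO response numbered 32 (20) and 20 (20) in place of 6 and 3, and members lower or higher in Dux KO vehicle 81 (56) and 3 (3) in place of 6 and 0. Over all genes the block gave 6180 (4920) higher with drug in p53 KO in place of 2668, 6596 higher with drug in Dux KO, the recovered library added, in place of 4156, 5660 (4509) with a higher p53 KO response in place of 2837, 5136 with a lower one in place of 2961, 3474 (1970) with a higher Dux KO response in place of 601 and 2418 (1860) with a lower one in place of 903. Under vehicle it gave 3138 (1714) higher and 2344 (1447) lower in p53 KO in place of 40 and 214, and 2837 (1722) higher and 2525 (1301) lower in Dux KO in place of 188 and 99. The other blocked counts stayed within 1.5 times.

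DESeq2 gave 14 members with a higher and 12 with a lower Dux KO response (1302 and 1694 of all genes), 47 lower and 4 higher in p53 KO vehicle (698 and 428), and 39 lower and 2 higher in Dux KO vehicle (935 and 772). The recovered library alone gave 3 members with a higher and 7 with a lower Dux KO response, and 1 member higher in Dux KO vehicle (297 of all genes). Without the filter on low counts, 5 members had a lower Dux KO response, and 1 member was higher in p53 KO vehicle (73 of all genes).

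Leaving out 1 library at a time, members with a lower p53 KO response ranged from 42 to 90 (1736 to 3555 of all genes) and with a higher one from 0 to 2 (1341 to 3266). Members lower in p53 KO vehicle ranged from 3 to 42 (30 to 527) and higher from 0 to 3 (0 to 248). Members with a higher Dux KO response ranged from 0 to 17 (52 to 1365) and with a lower one from 0 to 9 (305 to 1408); members lower in Dux KO vehicle ranged from 0 to 25 (0 to 500) and higher from 0 to 2 (0 to 656). All genes called higher with drug ranged from 5489 to 8865 in WT, 1358 to 2836 in p53 KO and 2657 to 4930 in Dux KO. The log2 difference of p53 KO and WT responses changed sign in uncalled genes. That of Zbp1 ranged from -1.25 without p53 KO drug library 1 to 1.29 without p53 KO vehicle library 1, with 0.01 and 0.02 without WT vehicle library a and WT drug library a and 0.61 without p53 KO drug library 2. That of Plk2 ranged from -1.76 without p53 KO drug library 1 (called) to 0.20 without p53 KO drug library 2, with 0.08 without p53 KO vehicle library 1. That of Irgm2 ranged from -0.08 to 0.45 without p53 KO vehicle library 2 and 1. Without p53 KO drug libraries 1 and 2 in turn, B3galt5 gave -0.10 and 1.76, and Grap2 gave 2.24 and -0.00.

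Of the choice itself, 1062 genes passed with a drug minimum of 1 CPM and 258 with 10 CPM, 196 with a 3-fold threshold, 343 with TMM-scaled CPM and 55 with FPKM, which divides by gene span and here also brings in Dux KO vehicle library 2, in place of 617. Of the 200, 56 passed with a minimum of 10 CPM and 17 with FPKM. With TMM-scaled CPM, 190 of the 200 stayed among the first 200. The median vehicle level of the members was 2.35 CPM in WT, 1.26 CPM in p53 KO and 1.39 CPM in Dux KO, where a fold depends on the added 0.5 CPM.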
